A study of Mus musculus with 20 samples.

Results

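The keratins described here were 10 genes by which cells of the ocular surface are commonly told apart: Krt12, Krt5, Krt14, Krt15, Krt4, Krt13, Krt19, Krt8, Krt18 and Krt7. They were chosen by symbol from known expression in corneal, limbal and conjunctival epithelium, with no measured value in the rule. Earlier results of these data were known when they were chosen. All 10 were found among the 24552 genes of the table. All 10 were also among the 11288 genes that passed the filter on low values and were tested.

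Corneal epithelium had been scraped from naïve, wild-type, female C57BL/6J mice that were unwounded before collection, to ask how the epithelial transcriptome differs with age. Each library held the epithelium of both corneas of 1 animal, and there were 5 libraries at each of 4 ages. The labels give the ages as 2 to 3 months (the young group, called 2-month here), 12 to 13 months, 18 to 19 months and 24 to 25 months, and the 15 libraries of the 3 older ages together are called aged. Libraries were primed on the poly(A) tail, so that a gene is counted mainly at its 3′ end.

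Keratins are the intermediate filament proteins of epithelial cells, and they assemble from pairs of an acidic type I protein and a basic type II protein. KRT12, a type I keratin, is the hallmark of differentiated corneal epithelium, where it pairs in the mouse mainly with the type II keratin KRT5. KRT5 and KRT14 form the filaments of basal cells of stratified epithelia, and KRT15 is a type I keratin of basal cells that is enriched at the limbus, the rim of the cornea that holds its stem cells. KRT4 (type II) and KRT13 (type I) are partners in stratified mucosa such as the conjunctiva. KRT19 (type I) and KRT7 (type II) are found in conjunctival and glandular epithelium, and KRT8 (type II) and KRT18 (type I) are partners in simple epithelium.

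Between 6699383 and 10762360 reads per library lay on genes, with a median of 8731333. Markers of corneal epithelium were high in every library: the sum of Pax6, Aldh3a1, Slurp1, Tkt and Aldh1a1 lay between 90285 and 143795 normalized counts (reads divided by the size factor of the library). The sum of 5 genes linked to the limbus lay between 1554 and 2705. Of 8 goblet cell markers, which mark conjunctiva, none was at 0 in every library, and their sum lay between 87.9 and 227. Most of that sum came from Fcgbp, with a mean of 113 normalized counts, while Muc5ac had a mean of 3.55 and was at 0 in 14 libraries. The 2-month libraries stood apart in 2 sets of genes listed as markers of other cells, given beside the conjunctival keratins below. Which cells held this RNA was not tested. The 12-month replicate 3 library had 1047 normalized counts over 4 melanocyte genes, against 44.2 to 133 in the other libraries.

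In the genome (GRCm38), 9 of the 10 keratins lie in the clusters that the type split predicts. The type I genes Krt12, Krt13, Krt15, Krt19 and Krt14 lie on chromosome 11, and the type II genes Krt7, Krt5, Krt4 and Krt8 lie on chromosome 15. Krt18 is a type I gene that lies in the type II cluster, 23873 bases from Krt8. Krt13 (chr11:100117327-100121566), Krt15 (chr11:100131759-100135949) and Krt19 (chr11:100140810-100145926) are neighbours, with 10192 bases between Krt13 and Krt15 and 4860 bases between Krt15 and Krt19. Krt4 lies at chr15:101918535-101924735 and Krt7 at chr15:101412403-101427806.

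The stretches around the transcription start of 4 members are shown because they are the regulatory sequence closest to the transcripts that were counted: Krt12 and its partner Krt5, the most specific and the most general keratin of the cornea, and Krt13 and Krt7, a pair of conjunctival keratins. Each holds the 250 bases before and the 50 bases from the start in RefSeq (build GRCm38.p6), written 5′ to 3′ on the strand of the gene. Capitals mark the letters TATAAA or CACCC on either strand (TTTATA and GGGTG on the other), the cores of the TATA box and of the sites of Krüppel-like factors. The RefSeq promoter table matched 7 of the 10 members by symbol, and Krt4, Krt15 and Krt19 were not among them. The Krt12 stretch is chr11:99422210-99422509 and the Krt13 stretch chr11:100121517-100121816, both on the minus strand. The Krt5 stretch is chr15:101712856-101713155 on the minus strand, and the Krt7 stretch chr15:101412153-101412452 on the plus strand.
Krt12: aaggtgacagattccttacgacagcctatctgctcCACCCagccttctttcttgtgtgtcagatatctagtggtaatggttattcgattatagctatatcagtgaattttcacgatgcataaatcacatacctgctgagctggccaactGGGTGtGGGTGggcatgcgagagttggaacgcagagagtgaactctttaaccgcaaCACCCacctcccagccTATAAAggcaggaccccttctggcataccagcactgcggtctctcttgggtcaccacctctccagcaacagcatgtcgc
Krt5: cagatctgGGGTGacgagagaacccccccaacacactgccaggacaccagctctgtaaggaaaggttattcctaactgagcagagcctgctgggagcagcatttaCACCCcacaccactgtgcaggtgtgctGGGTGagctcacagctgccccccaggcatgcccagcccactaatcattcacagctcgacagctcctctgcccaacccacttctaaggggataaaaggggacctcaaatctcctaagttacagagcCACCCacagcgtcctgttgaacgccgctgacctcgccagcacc
Krt13: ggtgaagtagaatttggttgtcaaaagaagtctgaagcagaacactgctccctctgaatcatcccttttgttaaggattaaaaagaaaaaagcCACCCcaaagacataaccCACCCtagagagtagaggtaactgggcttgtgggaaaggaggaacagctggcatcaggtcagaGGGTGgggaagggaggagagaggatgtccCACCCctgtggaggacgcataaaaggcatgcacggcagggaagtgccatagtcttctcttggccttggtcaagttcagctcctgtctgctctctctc
Krt7: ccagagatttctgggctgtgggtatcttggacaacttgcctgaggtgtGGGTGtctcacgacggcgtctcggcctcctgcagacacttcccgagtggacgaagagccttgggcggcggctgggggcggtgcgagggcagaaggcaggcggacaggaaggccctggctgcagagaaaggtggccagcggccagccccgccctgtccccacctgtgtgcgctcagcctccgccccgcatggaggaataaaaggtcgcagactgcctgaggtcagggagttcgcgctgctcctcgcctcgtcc

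Krt12 alone of these 4 held TATAAA, 29 bases before the start, a motif found in 13.6% of the 32851 RefSeq windows of this length. The Krt12, Krt5 and Krt13 stretches each held CACCC 4 times and the Krt7 stretch held it 1 time, and 57.5% of all windows held it. The letters GGGCGG or CCGCCC, the core of a site for Sp1-like factors, were present 4 times in the Krt7 stretch and in none of the other 3, against 35.7% of all windows. These matches describe the letters only.

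The 10 keratins together took 4.15 to 6.10% of a library's reads. The lowest share (95% Wilson interval 4.134 to 4.161%) and the highest (6.087 to 6.115%) were both 2-month libraries, and the intervals cover counting error only. The share was 5.12% ± 0.701 (SD, n = 5) at 2 months, 4.70% ± 0.224 at 12 months, 4.84% ± 0.258 at 18 months and 5.26% ± 0.267 at 24 months. By age, the exact two-sided permutation test against 2 months gave p = 0.262, 0.460 and 0.690 at 12, 18 and 24 months, each 0.690 after Benjamini-Hochberg adjustment over the 3 tests. Of the reads on these 10 genes, 58.7% came from Krt12, 17.3% from Krt15, 15.1% from Krt5, 6.70% from Krt13, 1.34% from Krt14, 0.622% from Krt4, 0.219% from Krt19, 0.109% from Krt7, 0.00853% from Krt8 and 0.00378% from Krt18. These are shares of reads and not of protein or of molecules, since genes differ in how well they are captured.

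Krt4, the type II keratin of conjunctiva and other moist mucosa, was lower than in the young group at every older age, and Krt19 was lower at 12 and 18 months. No keratin of the 10 was called higher than in the young group by limma at any older age. The log2 values of the 4 ages were fitted with limma, and a call needed both a Benjamini-Hochberg adjusted p-value no higher than 0.05 and a 1.2-fold difference. At 12 months 2 of the 10 keratins were called, both lower, where 0.301% of all genes tested were called lower and 0.230% higher. At 18 months the same 2 keratins were called, where 0.337% of all genes were called lower and 0.337% higher. At 24 months 1 keratin was called, where 0.470% of all genes were called lower and 0.310% higher. In the 15 aged libraries against the young group Krt4 and Krt19 were called, where 0.532% of all genes were called lower and 0.478% higher. The median log2 fold change of the 10 keratins was -0.45, -0.09 and -0.02 at 12, 18 and 24 months, and over all genes tested it was -0.0101, -0.0011 and 0.0052. In bulk RNA, fewer cells of a type and less RNA of a gene per cell cannot be told apart.

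**Figure D1:**
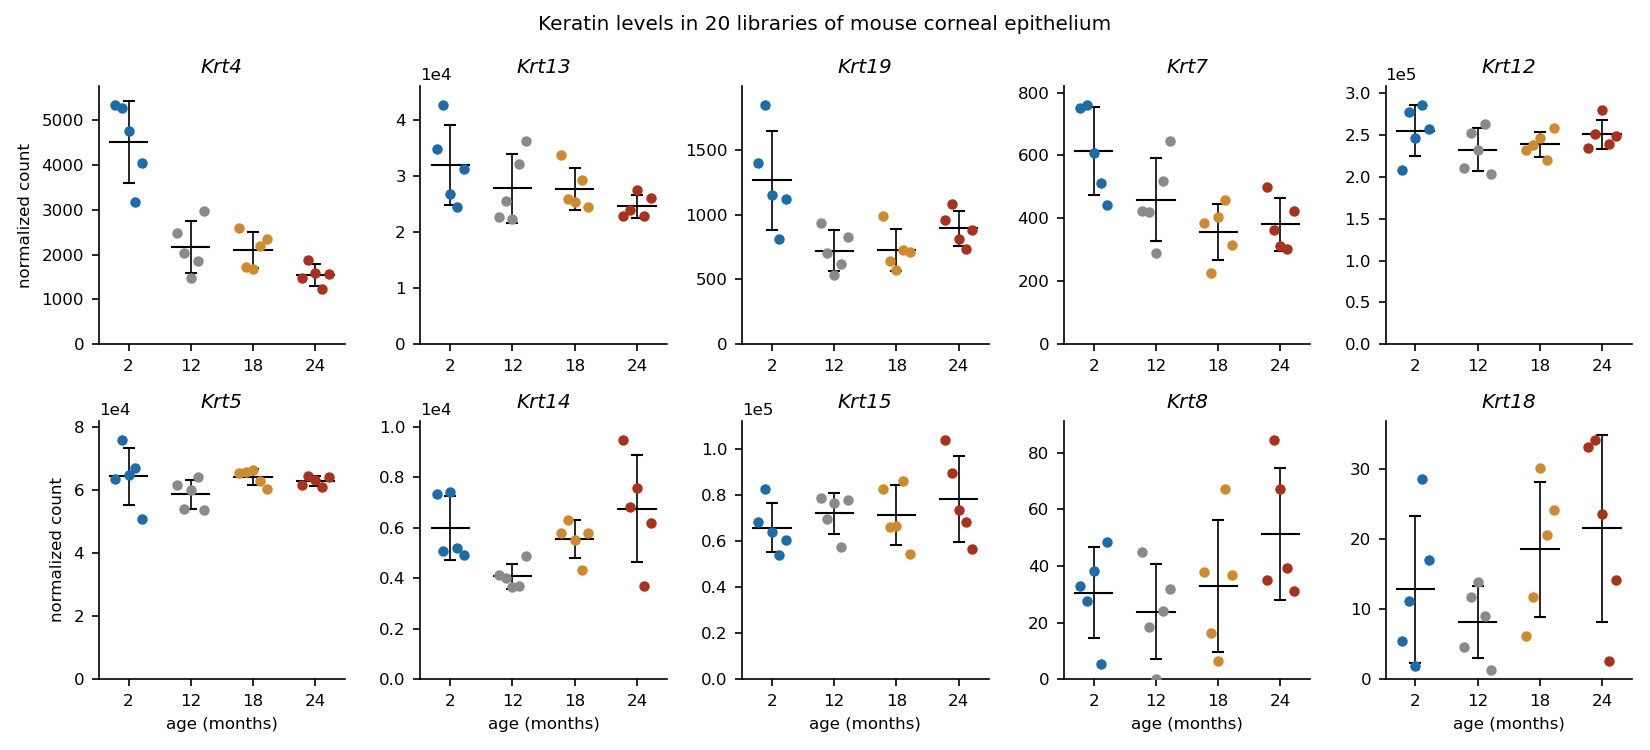
Normalized counts of the 10 keratins (y axes, linear and from 0, 1 scale per gene) by age in months (x axes). Points are the 5 libraries of an age, the long bar is the mean and the error bar the SD. The Krt4 points of the 3 older ages, at 1223 to 2977, lie below all 5 points of 2 months, at 3170.3 to 5337, while the Krt12 points of the 4 ages overlap.

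The Krt4 values of the 5 young libraries were 5337, 5281, 4751, 3170.3 and 4053 normalized counts. At 12 months they were 2491, 2047, 1475, 1865 and 2977, and at 18 months 2600.2, 1726, 1675, 2201 and 2346. At 24 months they were 1473, 1882, 1583, 1223 and 1563. Thus all 15 aged libraries lay below the lowest young library, a separation in this direction shown by 0.301% of all genes tested. Against the single ages, the share of genes with all libraries below the young ones was 1.06% for 12 months, 1.01% for 18 and 1.55% for 24. The lowest young library was replicate 4 and the highest aged library was 12-month replicate 5.

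The mean of Krt4 was 4518 ± 914 (SD, n = 5) normalized counts at 2 months, 2171 ± 579.8 at 12 months, 2109.8 ± 400.1 at 18 months and 1545 ± 237 at 24 months. At 12 months Krt4 fell by 1.07 on the log2 scale (SE 0.168, limma adjusted p = 7.07e-04), that is 2.10-fold lower, and at 18 months it fell by 1.09 (adjusted p = 6.23e-04), that is 2.13-fold lower. At 24 months it fell by 1.53 on the log2 scale (SE 0.168, limma adjusted p = 2.17e-06), or 2.90-fold lower, to 34.5% of the young level. Fold changes are on the scale of log2 of the normalized count plus 1. The exact permutation test of 5 libraries against 5 gave p = 0.00794 at each age, the smallest it can give.

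Among the older ages, Krt4 was lowest at 24 months, but this step did not pass the adjustment. The difference between 24 and 18 months was -0.44 on the log2 scale (exact permutation p = 0.0397, limma adjusted p = 0.919), with 4 of 5 libraries of 24 months below all of 18 months. Between 24 and 12 months it was -0.46 (limma adjusted p = 0.208), with 2 of 5 libraries below all of 12 months. The 12-month and 18-month levels differed by less than their spread (-0.02, limma adjusted p = 0.983, 95% interval -0.36 to 0.32).

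Krt19, the smallest keratin, found in conjunctiva and limbus, had young values of 1395, 1844, 1149.8, 815 and 1117 normalized counts. At 12 months the values were 932, 702, 530.4, 621 and 828, and at 18 months 989, 639, 572, 723 and 709.8. At 24 months they were 961, 1085, 813, 733 and 884. The groups overlapped at each age through young replicate 4, the lowest of its group, with 3 of 5 libraries below every young library at 12 months, 4 of 5 at 18 months and 2 of 5 at 24 months.

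The Krt19 mean was 1264 ± 384 (SD, n = 5) normalized counts at 2 months, 723 ± 160.2 at 12 months, 727 ± 159 at 18 months and 895 ± 136 at 24 months. Krt19 fell by 0.78 on the log2 scale at 12 months (SE 0.182, limma adjusted p = 0.0391) and by 0.77 at 18 months (adjusted p = 0.0379), that is 1.72-fold and 1.71-fold lower. At 24 months the difference was -0.46 on the log2 scale and did not pass (limma adjusted p = 0.362). Over the aged libraries together Krt19 fell by 0.67 (SE 0.155, limma adjusted p = 0.0224). The difference between 24 and 12 months was 0.32 on the log2 scale (limma adjusted p = 0.408, 95% interval -0.05 to 0.70), so that the 24-month level was not shown to differ from the 12-month level. The call at 12 months held in 14 of 28 other settings, that at 18 months in 17 of 28 and that of the aged libraries in 25 of 27. Among the 20 libraries left out in turn, the call at 12 months was lost without young replicate 1, 2, 3 or 5, 12-month replicate 2, 3 or 4, 18-month replicate 4 or 5 or 24-month replicate 1, and that at 18 months without young replicate 1, 2, 3 or 5 or 18-month replicate 2, 3, 4 or 5. Without young replicate 2, the highest library, the limma adjusted p was 0.169 at 12 months, 0.175 at 18 months and 0.180 over the aged libraries, and without young replicate 1 it was 0.0608, 0.0924 and 0.0839.

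Krt7, a type II keratin of glandular and conjunctival epithelium, had 749.8, 759.9, 609, 511 and 444 normalized counts in the young libraries. At 12 months the values were 423, 419.6, 289, 520.1 and 645, at 18 months 384, 228, 403, 459 and 316, and at 24 months 501, 363, 312, 302 and 425. At 18 and 24 months 4 of 5 libraries lay below every young library, and at 12 months 3 of 5. The differences from 2 months did not pass the adjustment: they were -0.44 at 12 months, -0.79 at 18 months and -0.68 at 24 months on the log2 scale (limma adjusted p = 0.504, 0.0916 and 0.155). Over the aged libraries the difference was -0.64 (SE 0.174, 95% interval -0.99 to -0.28, limma adjusted p = 0.0773), and voom on the recovered reads gave an adjusted p of 0.0320. It passed the thresholds in 2 of 27 other settings, and without young replicate 2 the limma adjusted p was 0.304.

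Krt13, the type I partner of KRT4, was the most read of the conjunctival keratins, and no age passed. Its young values were 34864, 42636, 26803, 24448 and 31251 normalized counts, and at 24 months they were 22845, 23922, 27459, 22800.3 and 25993. The 12-month libraries lay between 22396 and 36170.5, and the 18-month libraries between 24425 and 33668. The groups overlapped at every age. The difference from 2 months was -0.20, -0.19 and -0.36 on the log2 scale at 12, 18 and 24 months (limma adjusted p = 0.722, 0.893 and 0.378), with a 95% interval of -0.65 to -0.06 at 24 months.

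**Figure D2:**
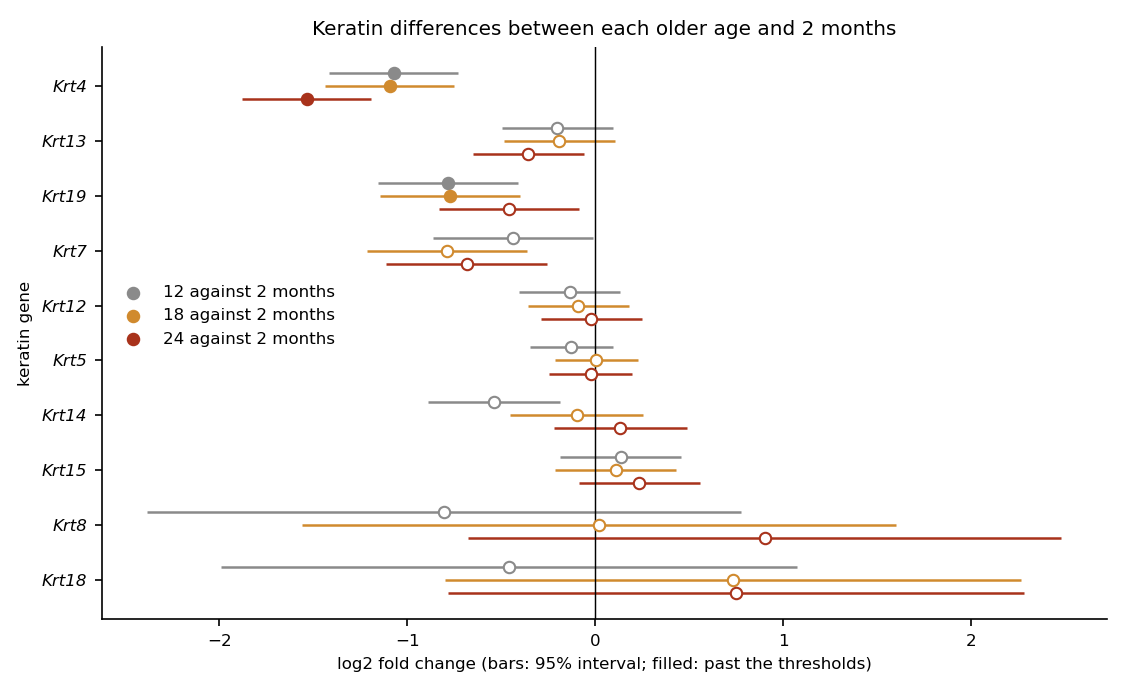
Log2 fold change of each keratin (y axis, conjunctival keratins at the top) at 12, 18 and 24 months against 2 months (x axis, log2 scale), from limma over 20 libraries. Bars are 95% intervals and filled points are past the thresholds: the 3 points of Krt4 and those of Krt19 at 12 and 18 months. Those of Krt8 and Krt18 have the widest bars.

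The partners Krt13 and Krt4 therefore stood in different proportion in young and aged epithelium. The ratio of Krt13 to Krt4 normalized counts was 6.53, 8.07, 5.64, 7.71 and 7.71 in the young libraries. It was 9.14, 12.5, 15.2, 17.3 and 12.2 at 12 months, between 10.4 and 15.1 at 18 months, and 15.5, 12.7, 17.4, 18.6 and 16.6 at 24 months. The young and aged libraries did not overlap at any age. A ratio within a library does not depend on the size factor, and a ratio between genes counted at their 3′ ends is read here only across ages.

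On the log2 scale the mean Krt13 to Krt4 ratio was 2.82 ± 0.22 (SD, n = 5) at 2 months, 3.69 ± 0.35 at 12 months, 3.73 ± 0.22 at 18 months and 4.00 ± 0.21 at 24 months. It rose 1.83-fold, 1.87-fold and 2.27-fold, with an exact permutation p of 0.00794 at each age and 0.0476 after adjustment over the 18 tests of ratios. The adjusted p was 0.0714 or 0.0952 at 12 months without any 1 of the 5 young libraries, and 0.0714 at 18 and 24 months without young replicate 1, 3 or 5. The summed conjunctival keratins Krt4, Krt13 and Krt19 relative to Krt12 had 1 value that came near: at 24 months the log2 ratio differed by -0.44 (exact permutation p = 0.0476, adjusted p = 0.171). These ratios lay between 0.103 and 0.114 at 24 months and between 0.0995 and 0.199 at 2 months. The young values were 0.199, 0.179, 0.132, 0.0995 and 0.141, so that young replicate 4 lay below every 24-month library and the rest lay above. Most of the sum in these ratios came from Krt13, with a mean of 28029 normalized counts, against 2586 for Krt4 and 902 for Krt19.

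**Figure D3:**
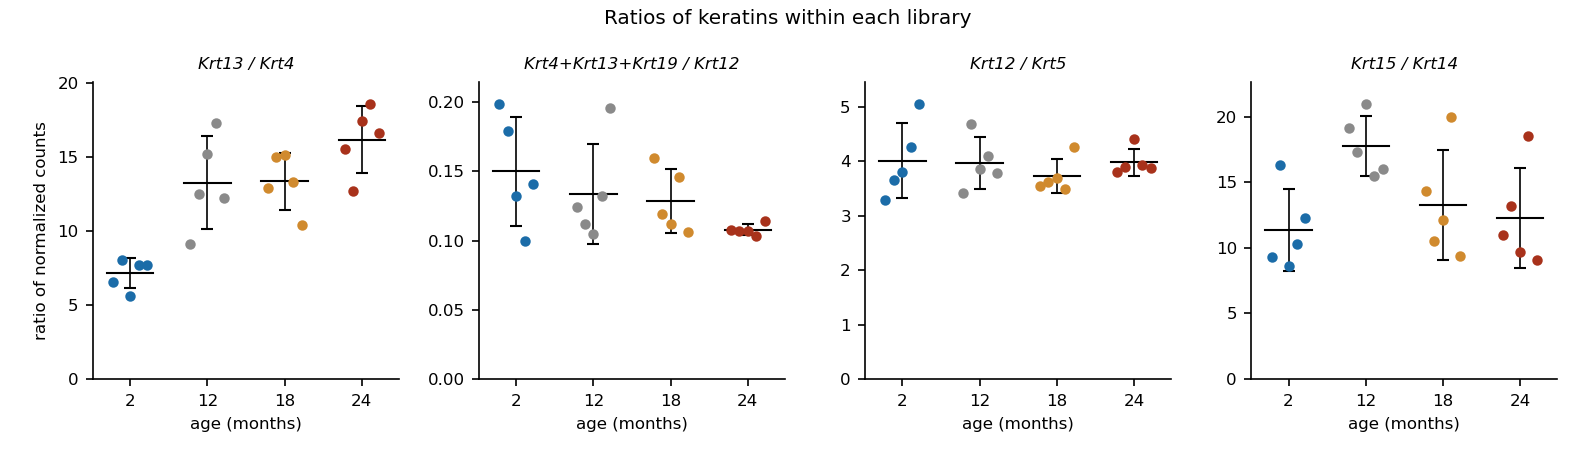
Ratios of normalized counts within each library (y axes, linear and from 0) by age in months (x axes). Points are the 5 libraries, the long bar is the mean and the error bar the SD. The Krt13 to Krt4 ratio lies between 5.64 and 8.07 at 2 months and between 9.14 and 18.6 at the older ages, while the Krt12 to Krt5 ratio overlaps at all 4 ages.

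Markers of other cells were read beside these keratins, with the whole of each list. The summed goblet cell markers lay between 123 and 162 normalized counts at 2 months, 87.9 and 136 at 12 months, 126 and 225 at 18 months and 98.3 and 227 at 24 months, so that the young group overlapped with each older age. Of the 8 goblet markers 2 were abundant enough to test (Agr2 and Fcgbp), and 0 of the 2 were called at any age by limma. The other goblet markers averaged 6.15 normalized counts or less, so that the sum mainly followed Fcgbp and is a weak measure of goblet cells. The summed 6 markers of stromal keratocytes, the cells beneath the epithelium, moved in the same direction as Krt4: they lay between 1637 and 4374 at 2 months, 662 and 1500.1 at 12 months, 642 and 1316 at 18 months and 318 and 1018 at 24 months.

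Of the keratocyte markers, Col1a1 and Col1a2, the chains of type I collagen, were called lower at each older age and the proteoglycan gene Dcn at 24 months. Col1a1 had a mean of 929 ± 329 (SD, n = 5) normalized counts at 2 months and 73.1 ± 49.8 at 24 months. Ptgds, another keratocyte marker, went the other way at 12 and 18 months and was not called. It was at 0 in every young library, with means of 109 ± 237 at 12 months (highest library 533) and 5.66 ± 8.58 at 18 months. The 5 genes of secreted gland proteins (Obp1a, Mup4, Pip, Scgb2b2 and Wfdc18), a list taken from earlier results of these data, were summed to between 738 and 10471 at 2 months and to between 23.9 and 220.2 at the older ages. By limma 4 of these 5 were called lower at 12 months and all 5 at 18 and 24 months, where 0.301, 0.337 and 0.470% of all genes were. Since the list was taken from these same data, these calls are no separate evidence.

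The summed 5 leukocyte markers were also lower at 12 and 24 months, with no overlap with the young group: they lay between 247 and 337 normalized counts at 2 months, 130.3 and 219.7 at 12 months and 153 and 235 at 24 months. At 18 months, between 196 and 399, they overlapped with the young group. Of these markers 4 were abundant enough to test and 0 were called by limma at any age. Cd74, the invariant chain of antigen presentation, had 113 ± 47.5 (SD, n = 5) normalized counts at 2 months and 38.7 ± 13.2 at 12 months (limma adjusted p = 0.0562), and H2-Aa, a class II antigen-presenting chain, 146 ± 31.9 and 112 ± 30.9 (limma adjusted p = 0.626). The summed 3 vessel markers lay between 14.8 and 46 at 2 months and between 0 and 32 at the older ages, and Kdr, the 1 of them that was tested, was not called. The sums of 3 Schwann cell markers and of 4 meibomian gland markers lay between 0 and 40.6 and between 0 and 44.5 over all libraries.

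Within the young group, replicate 4 had the highest sum of gland genes (10471), the lowest sum of keratocyte markers (1637) and the lowest Krt4, Krt13 and Krt19. Without that library Krt4 fell by 1.19, 1.21 and 1.66 on the log2 scale at 12, 18 and 24 months (limma adjusted p = 1.89e-04, 1.92e-04 and 6.94e-07), and Krt19 had adjusted p-values of 0.00985, 0.0073 and 0.159. The part of the keratocyte, gland, leukocyte and vessel RNA in the result was not tested.

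**Figure D4:**
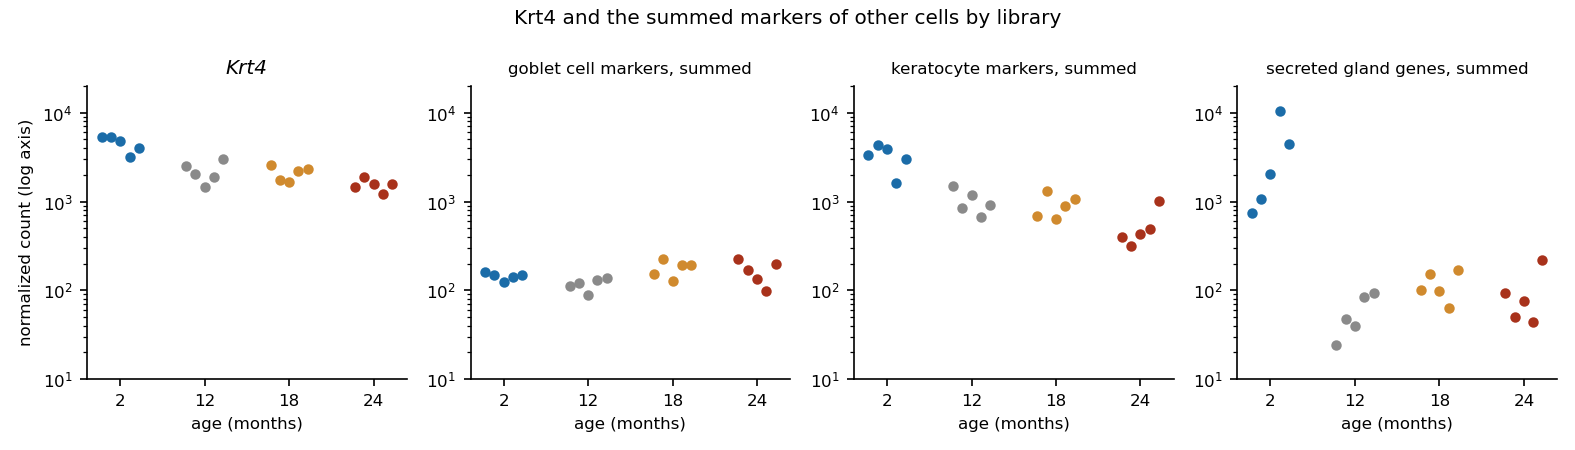
Normalized counts by library (y axes, log scale, shared by the panels) of Krt4, of the sum of 8 goblet cell markers, of the sum of 6 stromal keratocyte markers and of the sum of 5 secreted gland genes, by age in months (x axes). Each point is 1 library. Krt4, the keratocyte sum and the gland sum are higher at 2 months than at the older ages. The goblet sums, which came mostly from Fcgbp, overlap between the ages. The young library with the highest gland sum (10471) has the lowest Krt4 and also the lowest keratocyte sum (1637) of its group.

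Krt12, the keratin of corneal differentiation, differed by less than its spread between the ages. Its values were 208871, 277804, 247077, 285895 and 257804 normalized counts at 2 months and 234750.4, 250940.3, 279946, 239449 and 249505 at 24 months. The 12-month libraries lay between 203580.0 and 263123 and the 18-month libraries between 219775 and 258249. Krt12 was the third most read gene of the table. The differences from 2 months were -0.14, -0.09 and -0.02 on the log2 scale at 12, 18 and 24 months (limma adjusted p = 0.826, 0.973 and 0.983), and the 95% interval at 24 months ran from -0.29 to 0.25.

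Krt5, the type II partner of KRT12 and KRT14, had means of 64476 ± 8999.5 (SD, n = 5) normalized counts at 2 months, 58732 ± 4665 at 12 months, 64269 ± 2495 at 18 months and 62992 ± 1569 at 24 months. All 5 libraries of 24 months lay between 60971 and 64574, inside the range of the young libraries, 50956 to 76023. Differences in mean from 2 months were -0.13, 0.01 and -0.02 on the log2 scale (limma adjusted p = 0.791, 0.996 and 0.977), with a 95% interval of -0.24 to 0.20 at 24 months. The log2 ratio of Krt12 to Krt5 differed from the young mean of 1.99 by -0.01, -0.10 and 0.00 (exact permutation p = 0.944, 0.468 and 1.00).

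Krt14, the type I keratin of basal cells, was lowest at 12 months. Its values were 7349, 5063, 7415, 5206 and 4928 normalized counts at 2 months and 4123, 4026, 3657, 3707 and 4867 at 12 months. At 18 months they were 5811, 6314, 5499, 4315 and 5790.3, and at 24 months 9482, 6829, 7586, 3699 and 6209. All 5 libraries of 12 months lay below every young library, with the nearest pair at 4867 and 4928. Such a separation at 12 months was shown by 1.06% of all genes tested. The 24-month group was the most spread, with replicate 4 inside the range of 12 months and the other 4 above it.

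The Krt14 difference between 12 and 2 months was -0.54 on the log2 scale (SE 0.172, limma adjusted p = 0.228, exact permutation p = 0.00794). At 18 and 24 months it was -0.10 and 0.13 (limma adjusted p = 0.978 and 0.849). From 12 to 24 months the difference was 0.67 (SE 0.172, exact permutation p = 0.0397, limma adjusted p = 0.0920, 95% interval 0.32 to 1.03), 1.59-fold on that scale. It passed the thresholds when young replicate 1 (adjusted p = 0.0456) or 24-month replicate 4 was left out of the limma fit.

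Krt15, the basal keratin enriched at the limbus, had means of 65866 ± 10752 (SD, n = 5) normalized counts at 2 months, 72096 ± 8915 at 12 months, 71294 ± 13110.3 at 18 months and 78476 ± 18684 at 24 months. Libraries of the last age ran from 56446 to 104093, and 2 of them lay above every young library. The differences of 0.14, 0.11 and 0.23 on the log2 scale did not pass (limma adjusted p = 0.869, 0.972 and 0.657), and the 95% interval at 24 months ran from -0.09 to 0.56. The ratio of Krt15 to Krt14 ran from 8.61 to 16.3 in the young libraries and was at least 15.5 in all 5 libraries of 12 months, a log2 difference of 0.67 (exact permutation p = 0.0238, adjusted p = 0.107). The ratio of Krt14 to its partner Krt5 differed by -0.41 at 12 months on the log2 scale (exact permutation p = 0.0794, adjusted p = 0.238).

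Krt8 and Krt18, the pair of simple epithelium, had the fewest reads of the 10 and spread widely within each age, with a coefficient of variation of the normalized counts of 45.4 to 71.1% for Krt8 and 52.0 to 82.1% for Krt18. Krt8 had 30, 37, 42, 5 and 51 reads in the young libraries and 36, 104, 71, 45 and 33 at 24 months, and 12-month replicate 3 had 0 of it, which allows up to 3 reads. Krt18 had 5, 15, 2, 27 and 18 reads at 2 months and 34, 42, 25, 3 and 15 at 24 months. The differences between 24 and 2 months were 0.90 (SE 0.771) for Krt8 and 0.75 (SE 0.748) for Krt18 on the log2 scale (limma adjusted p = 0.745 and 0.793). The 95% interval of Krt8 ran from -0.68 to 2.48, and that of Krt18 from -0.78 to 2.28. The library with the fewest Krt8 reads at 2 months, replicate 4, had the most Krt18 reads of its group.

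Between the older ages no keratin was called. At 18 against 12 months 0 of the 10 were called by limma and 0 by voom, where 0.00886% of all genes were called in either direction. Of the 10, 1 (Krt14) had an unadjusted limma p below 0.05, as did 839 of the 11288 genes tested. At 24 against 12 months 0 were called by either tool, where 0.195% of all genes were called by limma. Here 3 (Krt14, Krt4 and Krt8) had an unadjusted limma p below 0.05, as did 1661 of the 11288 genes tested. At 24 against 18 months 0 were called by either tool and 1 (Krt4) had an unadjusted p below 0.05, where 0% of all genes were called by limma, with 599 genes at an unadjusted p below 0.05.

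Among 45 other keratin genes in the table, 11 were abundant enough to test and 1 was called. That call was lower at 24 months and over the aged libraries, where 0.470% and 0.532% of all genes tested were called lower. Krt75, a type II keratin known from hair follicles, fell from 228 ± 116 (SD, n = 5) normalized counts at 2 months to 59.4 ± 47.1 at 24 months, by 2.09 on the log2 scale (SE 0.423, limma adjusted p = 0.00898). At 12 and 18 months it had 113 ± 61.8 and 70.0 ± 20.3 normalized counts (limma adjusted p = 0.385 and 0.0933). The 5 other keratins with the highest means were Krt6b, Krt6a, Krt78, Krt17 and Krt80, and none of them passed. Krt6a and Krt6b, the keratins of activated and wounded epithelium, are near-identical copies between which reads may be split, so that their separate values are uncertain. At 24 months they had 62116 ± 11431 and 93152 ± 15816 normalized counts, against 69844 ± 11943 and 82398 ± 3579.6 at 2 months. Krt17, a keratin of stressed and appendage epithelium, had 602 ± 308 at 2 months and 281 ± 109.9 at 24 months.

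Genes that anchor or regulate keratins gave 0 calls by limma in every age comparison. Of 8 filament-linking proteins the median log2 fold change at 24 months was -0.18, with 7 of 8 negative. Dsp, which ties keratin to desmosomes, had 30502 ± 5544 (SD, n = 5) normalized counts at 2 months and 27799 ± 4309 at 24 months (limma adjusted p = 0.789). Of 6 transcription factors of corneal keratin genes the median was 0.05, with 4 of 6 positive. Klf4, a Krüppel-like factor of corneal differentiation, had 18669.6 ± 5549 and 15529.7 ± 2661 (limma adjusted p = 0.641), and Pax6, the regulator of eye identity, 4702 ± 744 and 5253 ± 647 (limma adjusted p = 0.678). Of 7 non-keratin intermediate filament genes 6 were tested, with a median of 0.01, and Lmnb1, a lamin of the nuclear envelope, had 2866 ± 318 and 2608 ± 373 (limma adjusted p = 0.764).

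Of the corneal epithelial markers, Aldh1a1, an aldehyde dehydrogenase of the corneal epithelium, was the only 1 of 5 called. It rose from 1219.6 ± 262 (SD, n = 5) normalized counts at 2 months to 1930.3 ± 287 at 18 months and 1919 ± 271 at 24 months (0.68 and 0.67 on the log2 scale, limma adjusted p = 0.0209 and 0.0232). At these ages 0.337% and 0.310% of all genes tested were called higher. The 12-month difference of 0.575 on the log2 scale did not pass (limma adjusted p = 0.0851). None of the 5 limbal markers was called by limma at any age. The median of their log2 fold changes was -0.08, -0.22 and -0.27 at 12, 18 and 24 months. Gpha2, the limbal marker with the highest mean, had 551 ± 133 and 583 ± 99.3 normalized counts at 2 and 24 months. The 5 differed in direction at 24 months, with log2 fold changes of 0.09 for Gpha2, 0.48 for Lrig1, -0.27 for Abcg2, -0.61 for Ifitm3 and -0.81 for Cd63.

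How the keratins varied together between animals was read from deviations from the mean of each age, over 8 pairs set by partnership or layer and 20 libraries. Krt4 and Krt13 gave Pearson r = 0.60 and Spearman rho = 0.54 (permutation p = 0.0219 and 0.0318, adjusted p = 0.122 for r), with r above 0 within each of the 4 ages. Without the 2 libraries farthest from the median of Krt4, r was 0.52 (permutation p = 0.0852). Krt7 and Krt19 gave r = 0.53 and rho = 0.57 (permutation p = 0.0306 and 0.0180, adjusted p = 0.122 for r), and 0.46 without the 2 farthest. The other 6 pairs had r between -0.35 and 0.26, and Krt5 with Krt12 had 0.23. No pair passed an adjusted p of 0.05.

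Among 8733 genes outside the 10, all averaging 50 normalized counts or more, those whose deviations were most like those of Krt12 over the 20 libraries were Cyb5r3 (r = 0.86), Pdzk1ip1 (0.86), Chmp4b (0.85), Arhgap1 (0.85) and Per1 (0.84). For Krt14 they were Atf5 (0.82), Pelp1 (0.75), Vars (0.75), Bri3bp (0.74) and the keratin Krt16 (0.74). For Krt13 they were Yipf3 (0.75), Ermp1 (0.75), Fbxo31 (0.74), Rhod (0.74) and Dhrs3 (0.73), and for Krt8 they were Ephb2 (0.82), Shtn1 (0.81), Fbxo31 (0.76), Hspb8 (0.73) and Tpcn2 (0.71). For Krt4, added after the values were seen, they were Sympk (0.80), Fbxo31 (0.78), Cbx6 (0.77), Shtn1 (0.77) and Krt17 (0.77). These are descriptions over libraries that share depth and preparation, with the best values picked from many genes. Those for Krt8 rest on 0 to 104 reads in a library, so that the libraries with the fewest reads can weigh heavily on them.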

How the data were processed

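Corneal epithelium of 20 female mice, 5 at each of 4 ages, was sequenced from the 3′ end. The authors used cutadapt for trimming, STAR with GRCm38 for alignment, HTSeq for counts per gene and the relative log expression method of DESeq2 for normalization, and the versions are not given in the sources used here. The deposited values are log2 of the count divided by a size factor plus 1. Reads were recovered from the deposited values as whole numbers (100% of values, tolerance 0.001). Keratins are similar to each other, and how reads that fit several genes were treated is not given in the sources used here. The mice were bought, aged in house or received from an ageing colony, and since the source of each animal is not given here, source and age cannot be told apart. The authors' own fold changes and p-values in the files were not used.

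limma 3.58.1 (R 4.3.3, with the package data.table in version 1.17.8) was fitted with a variance trend to 11288 genes, those averaging 10 normalized counts or more (7.6 to 13.3 reads in a library), with 1 estimate of the spread over the 4 ages, and a separate fit compared the 15 aged libraries with the young ones. P-values were adjusted by Benjamini-Hochberg over all genes tested. The limits of a call were an adjusted p of 0.05 and 1.2-fold. Ratios and shares used two-sided exact permutation tests over 252 splits, for which 0.00794 is the smallest p, and correlations used 100000 permutations within ages (Python 3.11.15, numpy 2.4.6, pandas 2.3.3, scipy 1.17.1, matplotlib 3.10.9). The fits were tested on simulated data. Depth was 6699383 to 10762360 reads on genes per library, and Krt8 and Krt18 had the fewest reads of the 10.

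The 10 keratins and the lists were chosen with earlier results of these data known. Named beyond the 10 were other keratins that passed the thresholds or else the 5 with the highest means, called members of each list or else up to 2 examples with the highest means, and the 5 genes most like each of Krt12, Krt14, Krt13 and Krt8. Pax6, Agr2, Fcgbp, Muc5ac, Ptgds, the 5 limbal markers and the genes most like Krt4 were named after their values were seen. Alternatives were quantile normalization, other filters and pseudocounts, a fit of only the 2 groups compared, a block for the replicate number, voom on the recovered reads, a threshold of 1.5-fold, another denominator of the share and leaving out each library. Positions and promoters came from RefSeq (GRCm38.p6).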

Additional observations from a re-analysis of the deposited data

Results flagged for a closer look

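The log2 ratio of Krt12 to Krt5 in 24-month replicate 3 was 2.14, and in the other 4 libraries of that age it lay between 1.93 and 1.97. The gap to the nearest library took 0.782 of the range of the group. It was the only library that stood apart among 68 groups of 5 libraries checked, of which chance alone would flag about 1 in 20. This library also had the highest Krt12 of its age, at 279946 normalized counts, and a Krt5 of 63427, inside the range of the others.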

How the results depend on the processing

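Krt4 was called lower at 12, 18 and 24 months and over the aged libraries in every setting run (28, 28, 28 and 27), with limma adjusted p-values of at most 0.0116. The number of keratins called at 12 months was 1 in place of 2, through Krt19, with no filter on low values, with voom, with only the 2 groups in the fit and with a pseudocount of 0.1, and at 18 months it was 1 with no filter, with only the 2 groups and with a pseudocount of 0.1. Counts under other pseudocounts were added after the data were seen. Leaving out 1 library gave 1 to 2 at 12 and at 18 months, 1 at 24 months, 0 to 1 at 24 against 12 months (Krt14) and 1 to 3 over the aged libraries, where voom also gave 3 by adding Krt7. The 1 was without young replicate 1 or 2, and the 3 without 12-month replicate 5. Leaving out 1 library gave 0 to 1 of the 6 ratios past the adjusted p at 12 and at 18 months and 0 to 2 at 24 months, and 0 to 1 of the 8 pairs. The Krt13 to Krt4 difference kept its direction, at 0.77 to 1.00, 0.82 to 0.99 and 1.099 to 1.264 on the log2 scale. Values near 0 changed sign. These were Krt12 at 24 months (0.00 with quantile normalization), Krt5 at 18 months (-0.001 with quantile normalization), Krt8 at 18 months (-0.10 with voom) and Krt8 over the aged libraries (-0.003 with voom, -0.15 with a pseudocount of 0.1). The correlation of Krt5 with Krt14 was -0.35 with quantile normalization and -0.11 without the 2 farthest libraries, that of Krt5 with Krt12 was -0.13 with quantile normalization, and without the 2 farthest libraries those of Krt12 with Krt13 and with Krt14 were 0.28 and 0.026. The causes were not tested.

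Leaving out 1 library also turned the sign of values near 0 or with few reads. The log2 differences ranged from -0.091 to 0.023 for Krt12 at 24 months, from -0.076 to 0.069, -0.104 to 0.04 and -0.129 to 0.015 for Krt5 at 18 months, at 24 months and over the aged libraries, and from -0.004 to 0.336 for Krt14 at 24 months. For Krt8 they ranged from -1.315 to 0.171 at 12 months, from -0.491 to 0.481 at 18 months and from -0.472 to 0.378 over the aged libraries, and for Krt18 over the aged libraries from -0.127 to 0.72. Log2 ratios ranged from -0.076 to 0.079 at 12 months and -0.066 to 0.089 at 24 months for Krt12 to Krt5, from -0.06 to 0.24 at 24 months for Krt15 to Krt14, and from -0.876 to 1.234 at 12 months and -0.77 to 0.738 at 24 months for Krt18 to Krt8. The share of reads differed from the young group by -0.665 to -0.176 percentage points at 12 months and by -0.104 to 0.384 at 24 months. Correlations ranged from -0.235 to 0.143 for Krt5 with Krt14 and from -0.272 to 0.093 for Krt12 with Krt13.

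Quantile normalization moved the median of a library by at most 0.0604 on the log2 scale. The labels number the animals 1 to 5 in each age, but libraries with the same number did not deviate together (30 pairs, correlation -0.303 to 0.159, 3 of them above 0.1, and 1 of 20 libraries correlated best with its own number). With the replicate number as a block, 2, 2 and 1 keratins were called at 12, 18 and 24 months and 2 over the aged libraries, as without it. Depth was lowest for Krt8 (0 to 104 reads in a library) and Krt18 (1 to 42), and the other 8 keratins had at least 194 reads in every library.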
